A study of Mus musculus with 8 samples.

Results

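Expanded Cd8 clonotypes of control marrow were T cells that shared both antigen receptor chains with at least 3 other Cd8 cells of the same pool. A clonotype was the pair of CDR3 nucleotide sequences of the most abundant TRA (alpha) and TRB (beta) contigs of a cell. Cd8 cells had at least 1 UMI (unique molecular identifier, a counted RNA molecule) of Cd8a or Cd8b1, no Cd4 UMI, 200 or more genes and at most 15% mitochondrial UMIs. Clonotypes with TRAV11-TRAJ18, the alpha chain of invariant natural killer T cells, were left out (44 and 65 cells). Members were selected on clonotype size, a measured value of the receptor libraries, and on the gate genes, and other genes played no part. The rule gave 79 clonotypes with 613 cells, of 10799 Cd8 cells with both chains, 28292 control cells and 56649 cells in the series. They were compared with 9592 singletons, Cd8 cells whose clonotype was seen once in its pool.

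The study profiled bone marrow T cells of mice that express the leukaemia fusion gene Runx1::Runx1t1 and of controls by 5′ single-cell RNA sequencing with receptor sequencing, in 4 pools with 1 gene expression and 1 receptor library each. The labels give the strain as C57BL/6, and each pool combined 2 mice, whose cells were not separated. Control mice carried the Runx1 Runx1t1/+ knock-in allele without Mx1-Cre and are labelled WT. Runx1::Runx1t1 mice carried the allele with Mx1-Cre, which is driven by an interferon-responsive promoter and acts in many haematopoietic and other cells, T cell precursors included. Both groups received Poly(I:C), an interferon inducer, in 4 injections of 5 mg/kg and were killed 4 weeks after induction, so the controls had seen the interferon stimulus as well. Sex-matched littermates were used; age is not given in the sources used here. Live, mCherry-negative CD3+ cells were sorted after negative enrichment of T cells. The control libraries held 13633 and 14659 barcodes with 90958101 and 99869646 UMIs, and the Runx1::Runx1t1 libraries 14664 and 13693 barcodes with 102883449 and 100115383 UMIs. With 2 pools a group, p-values cover only these pools and not variation between mice. Those of the gene tests also draw on a spread shared across genes, so they do not measure a gene's own spread between pools.

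Each T cell rearranges its own pair of receptor chains and passes them to its daughters, so cells with identical junctions in the same animal are usually progeny of the same cell. A naive Cd8 T cell that meets antigen divides and turns into effector cells, which carry granzymes and chemokines, and memory cells, many of which settle in the bone marrow. Unprimed mice also hold virtual memory cells, which acquire memory features through cytokines without a known foreign antigen.

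The receptors themselves are shown first, because clonotype size was read from them. The sequences below are CDR3 regions of control clonotypes, numbered by size within each pool, with capitals for bases found in neither the germline V nor the germline J segment. The first 3 show an alpha chain difference within the same beta chain, and the others show the alpha chain that recurred most among expanded clonotypes, with beta chains that go with it.
control 1 clonotype 1 TRA: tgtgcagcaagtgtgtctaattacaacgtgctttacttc
control 1 clonotype 4 TRA: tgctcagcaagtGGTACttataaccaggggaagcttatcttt
control 1 clonotypes 1 and 4 TRB: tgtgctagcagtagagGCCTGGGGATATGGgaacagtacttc
control 2 clonotype 1 TRA: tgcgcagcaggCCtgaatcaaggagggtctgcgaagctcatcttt
control 2 clonotype 6 TRA: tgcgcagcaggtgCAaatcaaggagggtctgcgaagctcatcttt
control 2 clonotype 7 TRA: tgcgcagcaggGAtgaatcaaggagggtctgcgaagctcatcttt
control 1 clonotype 7 TRA: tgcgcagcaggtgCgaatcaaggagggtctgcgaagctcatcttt
control 2 clonotype 1 TRB: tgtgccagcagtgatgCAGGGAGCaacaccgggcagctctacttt
control 2 clonotype 6 TRB: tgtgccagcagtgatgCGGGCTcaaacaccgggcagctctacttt
control 1 clonotype 7 TRB: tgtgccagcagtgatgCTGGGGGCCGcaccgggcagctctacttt
Runx1::Runx1t1 1, clonotype of 7 cells with the TRA of control 2 clonotype 1, TRB: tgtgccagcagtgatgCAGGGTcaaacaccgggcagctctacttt

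Expansion in control marrow was modest in size and spread over many clonotypes. Control 1 had 26 expanded clonotypes with 175 cells of 4972 (3.52%, Wilson 95% interval 3.04 to 4.07), and control 2 had 53 with 438 cells of 5827 (7.52%, 6.87 to 8.22). The largest clonotype held 14 cells in control 1 and 24 in control 2, and the median was 6 cells in both. Clonotypes of 2 cells numbered 81 and 120, and those of 3 cells 17 and 47. None of the 79 was found in another pool. Intervals here cover counting error only.

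**Figure D1:**
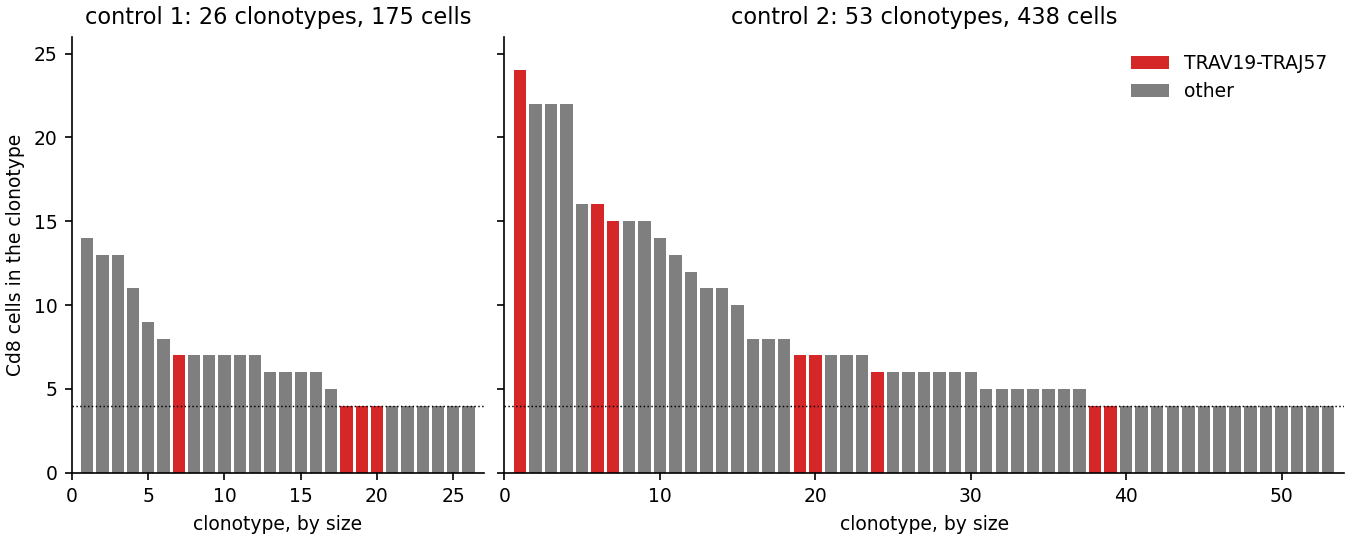
Number of Cd8 cells (vertical axis) in each expanded clonotype (horizontal axis, ordered by size) of control 1 and control 2, with TRAV19-TRAJ57 clonotypes in red and the dotted line at the minimum of 4 cells. The largest clonotypes hold 14 and 24 cells, and a red bar is the largest of control 2.

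The largest clonotypes of control 1 used TRAV14N-3 with TRBV17 (14 cells), TRAV9N-4 with a beta chain called as TRBV12-2 and TRBV13-2 (13), TRAV6-6 with TRBV13-3 (13), TRAV5-1 with TRBV17 (11) and TRAV6-6 with TRBV14 (9). Those of control 2 used TRAV19 with TRBV13-3 (24 cells), TRAV2 with TRBV13-1 (22), TRAV3D-3 with TRBV14 (22), TRAV7D-2 with TRBV16 (22) and TRAV2 with TRBV20 (16). The first and the fourth of control 1 had the same TRB sequence to the base, and 9 cells of each carried the alpha chain of the other as a second TRA contig. Together they held 25 cells. Control 2 clonotypes 18 (TRAV13-1, 8 cells) and 32 (TRAV5-1, 5 cells) shared a TRBV19-TRBJ1-5 sequence in the same way, with the other alpha chain in 7 and 4 cells. The pairing rule therefore counted cells with 2 productive alpha chains as separate clonotypes in these pairs.

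An alpha chain of TRAV19 joined to TRAJ57 recurred among expanded clonotypes of both control pools, a pattern chosen after its values were seen. It was present in 4 of 26 expanded clonotypes of control 1 (15.4%, 6.15 to 33.5) and in 8 of 53 of control 2 (15.1%, 7.85 to 27.1). Among singletons it was present in 20 of 4584 (0.436%, 0.283 to 0.673) and 18 of 5008 (0.359%, 0.228 to 0.568). The intervals of expanded clonotypes and singletons did not overlap in either pool. This is a description and not a test, since the pattern was chosen from these same values. In control 1 the 4 clonotypes had 4 to 7 cells, where they were 4 of 20, and none of the 6 clonotypes of 8 or more cells carried it, while in control 2 it was 5 of 35 and 3 of 18. Clonotypes of 2 or 3 cells carried it in 4 of 98 in control 1 and 0 of 167 in control 2. In Runx1::Runx1t1 marrow it occurred in 5 of 80 expanded clonotypes of pool 1 (6.25%, 2.70 to 13.8) and in 0 of 54 of pool 2, which allows up to 6.64% by the same interval. Trav19 lies at chr14:53845234-53845827 and Traj57 at chr14:54158505-54158569, both on the plus strand (GRCm38, GENCODE M21).

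**Figure D2:**
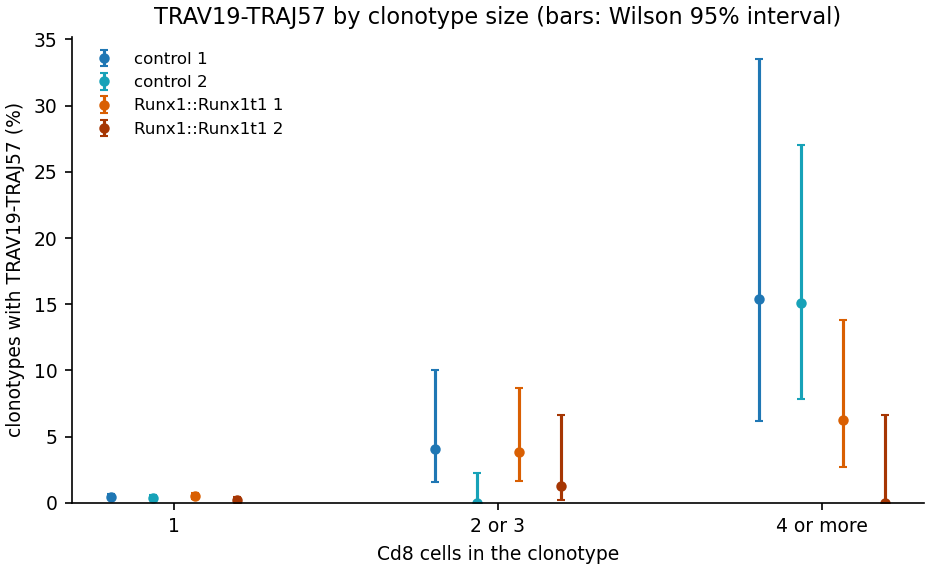
Share of clonotypes with a TRAV19-TRAJ57 alpha chain in percent (vertical axis) by number of Cd8 cells in the clonotype (horizontal axis), with Wilson 95% intervals, for the 4 pools. Clonotypes of 4 or more cells, taken as a single class, lie near 15% in both control pools, and singletons of the 4 pools lie under 0.5%.

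The 12 TRAV19-TRAJ57 clonotypes held 102 cells and had alpha CDR3 regions of a single length, 45 nucleotides, in 11 different nucleotide sequences that encoded 7 proteins. Of the 38 control singletons with these segments, 17 had that length. Beta chains were restricted as well: 8 of the 12 used TRBV13-3 (chr6:41130147-41130585, plus strand), 6 of them with TRBJ2-2 (chr6:41542957-41543007, plus strand), and 3 used TRBV29 (chr6:41271394-41271881, plus strand). Of the 38 singletons, 12 used TRBV13-3 and 2 used TRBV29. Control 2 clonotypes 1 and 6, of 24 and 16 cells, encoded the same TRB protein with 5 nucleotide differences, and their alpha chains differed at 4 nucleotides. Control 2 clonotype 1 and the 7-cell clonotype of Runx1::Runx1t1 pool 1 shown above had identical TRA sequences and the same TRB protein, with 3 nucleotide differences in TRB. Their TRB sequences differed, so the rule counted them as different clonotypes. Of 55001 distinct barcodes, 1627 occurred in more than 1 library, including those of 43 expanded control cells.

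Over all expanded clonotypes, TRBV13-3 was used by 4 of 26 (15.4%) and 11 of 53 (20.8%), against 6.44% and 6.13% of singletons. TRBJ2-2 was used by 3 of 26 and 9 of 53, against 5.17% and 5.81%. The TRAV19-TRAJ57 clonotypes made up much of this in control 2: without them TRBV13-3 was used by 3 of 22 (13.6%) and 4 of 45 (8.89%), and TRBJ2-2 by 2 of 22 (9.09%) and 3 of 45 (6.67%). CDR3 lengths were alike: the mean TRA length was 41.3 nucleotides in expanded clonotypes of both pools, against 41.0 and 41.1 in singletons, with SDs of 4.16 to 4.97. Mean TRB length was 42.6 and 41.9 nucleotides against 42.0 and 41.9. Cells with a second TRB contig made up 4.57% and 4.79% of expanded cells against 11.6% and 11.3% of singletons.

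The expanded cells expressed T cell genes beyond those used to gate them. Cd3e, a subunit of the T cell receptor complex, was at 1148 and 994 CPM (the UMIs of a gene as a share of the UMIs of the class, scaled alike for every class) in expanded cells of control 1 and 2, and at 832 and 754 CPM in singletons. The 10 genes of the T cell identity list summed to 6308 and 5557 CPM against 4706 and 4599. Of the 7 that entered the test described below, 1 passed as higher and 0 as lower, with a median log2 change of 0.15. Cd8a and Cd8b1, used by the rule, were at 498 and 1315 CPM in control 1 and 576 and 904 CPM in control 2. Markers of other cells were low. The 10 neutrophil and monocyte genes summed to 71.9 and 33.9 CPM, less than the 224 and 86.1 CPM of singletons. Its most abundant gene in singletons, Lyz2, was at 18.2 and 13.7 CPM in expanded cells, and Ltf and Ly6g were at 0 in both pools. The 7 B cell genes summed to 90.1 and 89.5 CPM, of which Ighm made up 68.9 and 75.8 CPM, while Ms4a1 and Ebf1 were at 0. The 6 Cd4 T cell genes summed to 187 and 130 CPM against 105.3 and 84.0 CPM, led by Ctla4 at 101 and 51.2 CPM, with Foxp3 at 2.03 and 2.02 CPM. The 7 gamma-delta T cell genes, led by Trgv2, summed to 50.6 and 52.0 CPM against 49.6 and 52.6 CPM. The 6 natural killer genes, led by Irf8, summed to 70.9 and 68.5 CPM against 83.6 and 92.5 CPM, and the 5 progenitor genes, led by Cd34, to 5.06 and 27.4 CPM against 5.43 and 16.5 CPM. The 6 erythroid genes summed to 17.2 and 118 CPM against 14.6 and 18.3 CPM. In control 2, clonotype 9 (15 cells) supplied 94.3% of the Hbb-bs UMIs of expanded cells and 57.8% of those of Dntt, the terminal transferase of lymphoid precursors. In the test described below, Lyz2, Ighm and the gamma-delta gene Tcrg-C1 passed as lower, as did Klrb1c of the natural killer list and Izumo1r of the Cd4 T cell list, and Hbb-bs, Hbb-bt, Irf8, Ctla4 and Icos as higher. The part of other cells in the results was not tested.

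Nearly every expanded cell transcribed Ccl5, a chemokine of memory and effector Cd8 T cells (chr11:83525778-83530518, minus strand). At least 2 Ccl5 UMIs were found in 174 of 175 expanded cells of control 1 (99.4%, 96.8 to 99.9) and in 437 of 438 of control 2 (99.8%, 98.7 to 99.96). Among singletons the share was 53.9% and 60.6%. In Cd4 cells, many of which should lack the transcript, the share was 36.0% and 43.5% at a median of 4815 and 4797 UMIs, and up to that level the singleton share cannot be told apart from free RNA. After thinning each cell to 2000 UMIs the shares were 99.4% and 99.8% in expanded cells, 46.6% and 52.4% in singletons and 28.7% and 34.7% in Cd4 cells. Median depth was 5292 and 5270 UMIs in expanded cells and 7137 and 7339 in singletons. Clonotypes of 2 cells already reached 83.3% and 99.6%, and those of 3 cells 90.2% and 100%.

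**Figure D3:**
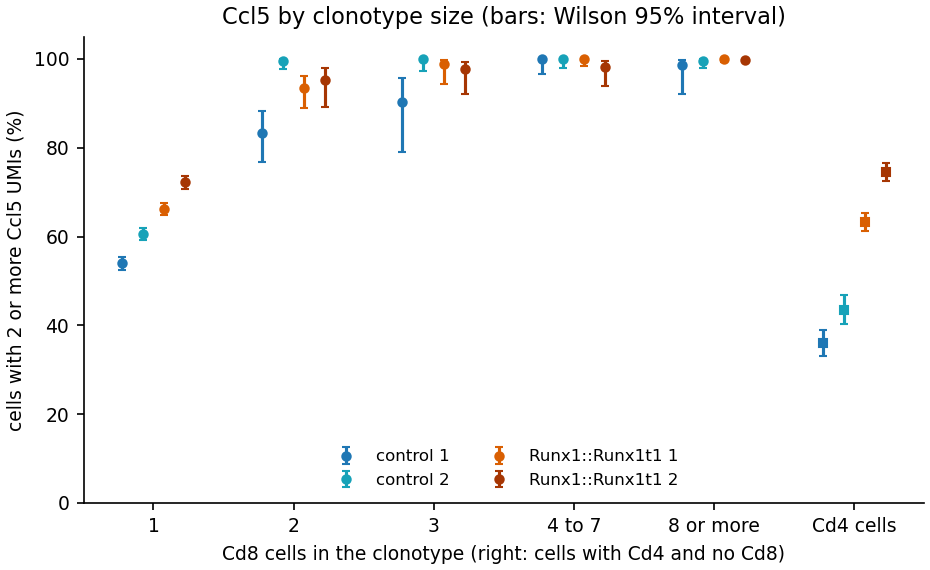
Share of cells with 2 or more Ccl5 UMIs in percent (vertical axis) by number of Cd8 cells in the clonotype, with Cd4 cells at the right (horizontal axis), and Wilson 95% intervals, for the 4 pools. In both control pools the share is between 53.9% and 60.6% in singletons and above 98% in clonotypes of 4 or more cells.

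Clonotypes of 3 cells, just outside the size limit, had Ccl5 at 20531 and 12581 CPM, and those of 4 cells 24186 and 14318 CPM. Gzma was at 920 and 278 CPM in clonotypes of 3 cells and at 999 and 441 CPM in those of 4. Ccr7 was at 173 and 76.3 CPM in the former and at 105.7 and 59.0 CPM in the latter.

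Gene expression of expanded cells was compared with that of singletons by summing counts per pool, with the pool as a block. Receptor segment genes, Cd8a, Cd8b1 and Cd4 were left out of the fit. Of 11758 genes tested, 1803 (15.3%) passed an adjusted p of 0.05 in edgeR's quasi-likelihood test with Benjamini-Hochberg adjustment. Of these, 897 (7.63%) were higher and 906 (7.71%) lower in expanded cells. Effector, chemokine and inhibitory receptor genes rose, and genes of naive T cells fell. Without the scaling factors that centre the fold changes (library totals alone), the median of all genes moved from -0.02 to 0.22 on the log2 scale and the calls to 2377 higher and 494 lower, with the sign of all 1803 kept. With the spread taken from the Runx1::Runx1t1 pools, control 1 alone gave 30 calls and control 2 alone 50.

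Genes of the cytotoxic effector list rose. Of the 16 cytotoxic effector genes, 15 were higher and none lower, with a median log2 change of 2.27 against -0.02 over all genes tested. Gzma, encoding granzyme A (chr13:113093825-113100981, minus strand), was at 830 CPM in expanded cells and 13.2 CPM in singletons of control 1, and at 265 and 28.5 CPM in control 2. Its log2 change was 4.29 ± 0.11 (adjusted p = 3.02e-292, edgeR). Here and below, the value after ± is the size of the log2 change divided by the square root of the F statistic of edgeR. It is not a standard error over the 2 pools and does not show how far their changes differ. Both it and p-values of this size rest on a spread shared across genes, and DESeq2 gave Gzma an adjusted p of 0.00284. Gzmk, granzyme K, was at 392 and 316 CPM against 18.7 and 22.6 CPM (log2 change 3.83 ± 0.11). Gzmb was at 182 and 189 CPM against 15.8 and 26.9 CPM, Prf1 (perforin) at 113 and 86.3 CPM against 24.1 and 28.5 CPM, and Ifng at 295 and 293 CPM against 46.3 and 63.8 CPM. The most abundant member, Nkg7, a granule protein, had a log2 change of 1.06 ± 0.12. Ctsw did not pass (0.23 ± 0.11).

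Further genes of the same list were among the 15 largest rises. Cx3cr1, the fractalkine receptor (chr9:119901616-120069879, minus strand), was at 90.1 and 33.9 CPM in expanded cells and at 2.67 and 2.37 CPM in singletons (log2 change 4.21 ± 0.28). Klrg1, an inhibitory lectin of effector cells, was at 88.1 and 27.4 CPM against 2.53 and 2.95 CPM. S1pr5, a sphingosine phosphate receptor, was at 76.0 and 37.9 CPM against 2.56 and 3.10 CPM, and Zeb2, a transcription factor of terminal effector cells, at 153 and 70.5 CPM against 9.67 and 8.80 CPM. Each of these genes was higher in expanded cells of both pools, and for each the level was higher in control 1 than in control 2. Lmo1, encoding a LIM-domain protein (18.2 and 14.5 against 0.739 and 0.756 CPM), and Adrb1, the beta-1 adrenergic receptor (16.2 and 10.5 against 0.540 and 0.655 CPM), had log2 changes of 4.17 and 4.14, next in size after Cx3cr1. Also among the 15 was Itgax, an integrin alpha chain (44.6 and 23.4 against 3.27 and 2.77 CPM). Stk32c, Lamc1, Smpdl3b and Soat2 had log2 changes of 3.85, 3.48, 3.42 and 2.95. Zeb2 UMIs came from 63 of 79 clonotypes, Klrg1 from 49, Cx3cr1 from 43, Adrb1 from 28, Lamc1 from 25, Soat2 from 23 and Lmo1 from 22.

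**Figure D4:**
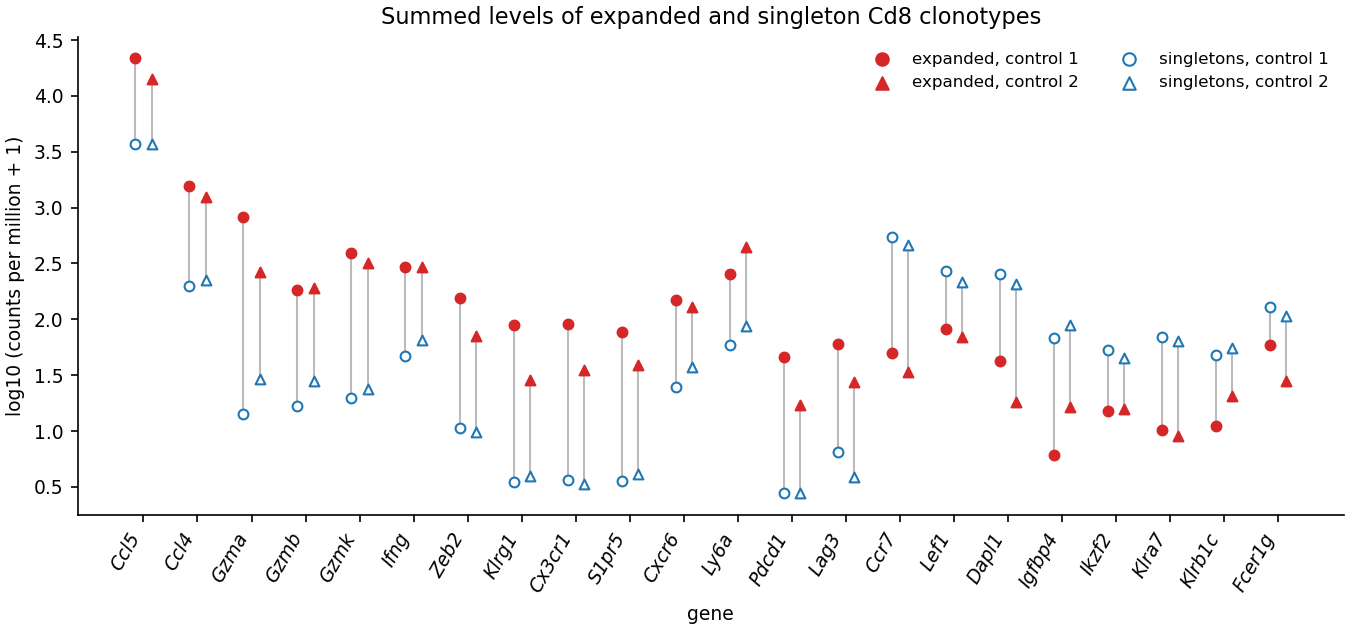
Summed level, as log10 of CPM + 1 (vertical axis), of 22 genes (horizontal axis) in expanded clonotypes (red) and singletons (blue outline) of control 1 (circles) and control 2 (triangles), with a line joining the 2 classes of each pool. Ccl5, granzyme and effector genes are higher in red in both pools, and Ccr7, Lef1, Dapl1 and Igfbp4 are higher in blue.

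Chemokines followed. Of the 6 chemokine genes tested, 4 were higher and none lower (median 1.74). Ccl5 was at 21629 and 14144 CPM in expanded cells and at 3745 and 3703 CPM in singletons (log2 change 1.98 ± 0.16). Ccl4, a chemokine of activated T cells, was at 1551 and 1247 CPM against 198 and 226 CPM, and its log2 change was 2.47 ± 0.11. Xcl1, which attracts cross-presenting dendritic cells (chr1:164931644-164935527, minus strand), was at 242 CPM against 320 CPM in control 1 and at 697 CPM against 488 CPM in control 2, and did not pass (-0.12 ± 0.11). The chemokine receptor Ccr2 rose by 1.91 ± 0.13 on the log2 scale, and Cxcr6 by 1.91 ± 0.11.

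Genes of naive and stem-like T cells were lower. Of 15 tested, 13 were lower and none higher (median -1.18). Ccr7, a chemokine receptor for lymph node entry (chr11:99144196-99155077, minus strand), was at 48.6 and 33.1 CPM in expanded cells against 541 and 458 CPM in singletons (log2 change -3.90 ± 0.14). Dapl1 was at 41.5 and 17.3 CPM against 254 and 205 CPM. The transcription factor Lef1 fell by 1.93 ± 0.12 and Tcf7 by 1.04 ± 0.11 on the log2 scale, so Tcf7 stayed at 228 and 208 CPM. Il7r, the interleukin 7 receptor alpha chain, was at 194 and 185 CPM against 340 and 260 CPM.

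The memory list moved mostly upward. Of 20 genes, 14 were higher and 1 lower (median 1.15). Ly6a (Sca-1) was at 253 and 443 CPM against 58.5 and 86.7 CPM, a log2 change of 2.01 ± 0.10. Cxcr3 rose by 1.10 ± 0.10, Tbx21 (T-bet) by 1.29 ± 0.10 and Eomes by 0.99 ± 0.11. Bcl2, a survival factor, was the lower gene (-0.88 ± 0.11). Ly6c2, high in memory cells, was abundant in both classes at 1693 and 2384 CPM against 1482 and 1873 CPM and did not pass (0.02 ± 0.12).

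Inhibitory receptors were higher at low absolute levels. Of 12 genes tested in the inhibitory and exhaustion list, 9 were higher and none lower (median 1.09). Pdcd1, encoding PD-1 (chr1:94038305-94052553, minus strand), was at 44.6 and 16.1 CPM against 1.79 and 1.76 CPM (log2 change 3.66 ± 0.39). Lag3 (chr6:124904361-124911705, minus strand) was at 59.8 and 26.6 CPM against 5.46 and 2.87 CPM (3.08 ± 0.28). Tigit was at 129 and 114 CPM against 24.2 and 25.4 CPM. Pdcd1 was at 0 in 15 of 26 clonotypes of control 1 and in 38 of 53 of control 2, and Lag3 in 8 and 26. In control 1, clonotype 11 (TRAV5D-4 with TRBV1, 7 cells) supplied 54.5% of the Pdcd1 UMIs, 42.4% of those of Lag3 and 40.2% of those of Tigit. In control 2, clonotype 14 (TRAV16N with TRBV5, 11 cells) supplied 25.0% and 10.6% of the UMIs of Pdcd1 and Lag3.

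Natural killer receptors that passed were lower with 1 exception. Of 18 tested, 9 were lower and 1, Cd160, higher (median -0.28). Klra7 (Ly49G) was at 9.12 and 8.06 CPM against 68.1 and 62.8 CPM (log2 change -3.18 ± 0.19), Klrb1c (NK1.1) at 10.1 and 19.8 CPM against 46.5 and 54.7 CPM, and Fcer1g, an adaptor of activating receptors, at 57.7 CPM in control 1 and 27.01 CPM in control 2 against 128 and 107 CPM. In control 1, clonotype 18 (4 cells) supplied 63.2% of the Fcer1g UMIs of expanded cells. Klrd1 and Klrk1 did not pass (0.16 ± 0.10 and 0.04 ± 0.10). Klra and Klrc genes have near-identical copies between which reads can be split, so single members of these families are uncertain. Ikzf2 (Helios) was at 14.2 and 14.9 CPM against 52.1 and 44.2 CPM and fell by 1.90 ± 0.18, while the innate-like list as a whole had 2 higher and 2 lower of 9.

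The 10 largest falls by fitted change were genes at 0 UMIs in all 613 expanded cells, so their order rests on counts of 0, and their bounds are smaller than the measured falls of Ccr7 and Klra7 (log2 changes of -3.90 and -3.18). Against a floor of 3 UMIs over both pools (0.865 CPM), Drc1, a ciliary dynein regulator (chr5:30281388-30366695, plus strand), was at least 7.71-fold lower. Its singleton level was 5.34 and 7.84 CPM from 188 and 311 UMIs. With DESeq2 it did not pass (adjusted p = 0.708), nor did Dyrk4, Klrc3 and Fcgr3. The kinase gene Dyrk4 was at least 4.37-fold lower, Ggt1 4.29-fold, Klrc3 3.63-fold, Fcgr3 (an Fc receptor) 3.23-fold, Syt6 3.07-fold, the long non-coding RNA Hotairm1 2.997-fold, Nacc2 2.78-fold and Rragd 2.73-fold. Their singleton levels over both pools lay between 2.37 and 6.67 CPM. The bounds hold for the sum of both pools. In control 1 alone, 3 UMIs were 3.04 CPM in expanded cells, and singletons were at 5.34 CPM of Drc1 and 3.30 CPM of Dyrk4 and below that floor for Klrc3, Syt6, Nacc2 and Rragd, which gives no bound there.

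Interferon response genes were higher in 8 of 11, and none was lower (median 0.69). Isg15 was at 41.5 and 116 CPM against 20.2 and 30.3 CPM, and Ifit3 at 17.2 and 49.2 CPM against 6.85 and 10.1 CPM. Of 23 proliferation genes, 3 were higher and none lower (median 0.05), beside 7.63% higher and 7.71% lower of all genes tested, with Mki67 at 23.3 and 14.9 CPM against 6.28 and 12.7 CPM (0.61 ± 0.27, not passing). Of 12 genes of recent receptor stimulation, 3 were higher and 3 lower. Nr4a1, an immediate target of receptor signalling, was at 301 and 300 CPM against 280 and 211 CPM and did not pass. Of the 9 residency genes, 5 were higher and 1, Itgae, lower. Cd69 was at 730 and 892 CPM against 722 and 771 CPM and did not pass. Of the 6 immature T cell genes, Dntt passed as higher and Myb and Id3 as lower. Dntt was at 0 in expanded cells of control 1 against 1.93 CPM in singletons, and at 25.8 against 5.52 CPM in control 2, where clonotype 9 supplied 57.8% of its UMIs.

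Singletons mix naive and memory cells, so the comparison was repeated among cells with at least 2 Ccl5 UMIs, with Ccl5 left out. This limit does not single out memory cells, since 36.0% and 43.5% of Cd4 cells of control 1 and 2 reached it as well. Naive singletons with free Ccl5 RNA may therefore remain in the comparison. Of 11193 genes, 1446 (12.9%) passed, 673 (6.01%) higher and 773 (6.91%) lower (edgeR, as above). With library totals alone the calls were 2189 higher and 434 lower. Leaving out the block lowered the count to 905, and control 1 alone or control 2 alone gave 1 call. Effector genes and Pdcd1 were again higher: Gzma was at 834 and 265 CPM against 21.8 and 42.3 CPM (log2 change 3.68 ± 0.11), Cx3cr1 at 90.6 and 33.9 against 4.25 and 3.38 CPM, and Pdcd1 at 44.8 and 16.1 against 2.43 and 2.16 CPM. Lmo1, Adrb1, Klrg1, S1pr5, Lamc1, Stk32c and Gzmk completed the 10 largest rises, with log2 changes from 3.21 (Gzmk) to 3.998 (Lmo1). Of the cytotoxic list 14 of 16 were higher, and of the naive list 14 of 15 lower, with Ccr7 at -3.05 ± 0.14. Natural killer receptors were lower in 12 of 18 and higher in none (median -0.86). Klra7 had a log2 change of -3.78 ± 0.19 and Klrb1c of -2.45 ± 0.16. Xcl1 passed as lower here (-0.71 ± 0.11), with most of the difference in control 1: it was at 243 against 521 CPM in control 1 and at 698 against 714 CPM in control 2. Il2rb, a subunit of the interleukin 15 receptor, was at 404 and 494 CPM against 626 and 621 CPM (-0.69 ± 0.11). Ly6c2 was lower by a small margin (-0.41 ± 0.12). By fitted change the 10 largest falls were again genes at 0 in expanded cells, with bounds smaller than the measured fall of Klra7, among them Drc1 (at least 9.32-fold lower) and Klrc3 (5.56-fold), and included Ccl2 (2.95-fold) and Rnf32 (2.37-fold). Dyrk4, Fcgr3, Rragd, Ggt1 and Nacc2 were at least 2.10 to 4.34-fold lower, again over the sum of both pools.

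Expanded clonotypes were not alike in their effector genes. Ccl5 exceeded the singleton level in all 26 and 53 clonotypes, from 12579 to 38054 CPM in control 1 and from 6085 to 41866 CPM in control 2. Ccr7 exceeded its singleton level in 1 of 26 and 0 of 53. Gzma in contrast was at 0 in 6 and 20 clonotypes, with medians of 420 and 32.3 CPM and highest levels of 4939 and 5961 CPM. Control 1 clonotype 10 (TRAV7D-2 with TRBV16, 7 cells) alone supplied 36.8% of the Gzma UMIs of its pool. In control 2 clonotype 12 (TRAV13D-2 with TRBV14, 12 cells) supplied 16.4%. Gzmk was at 0 in 3 clonotypes of each pool, with medians of 360 and 308 CPM.

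Across the 79 clonotypes, Gzma and Cx3cr1 levels had a Spearman correlation of 0.77 and Ccl5 and Gzma of 0.69, while Ccl5 and Xcl1 had -0.61. Among the 24 clonotypes of 8 or more cells the values were 0.74, 0.59 and -0.68. Within control 1 (26 clonotypes) the values were 0.72, 0.68 and -0.43, and within control 2 (53) 0.70, 0.66 and -0.48, so the pair of Ccl5 and Xcl1 was weaker within each pool than over both. Over both pools, Gzmk followed neither Gzma (-0.13) nor Ccl5 (0.01). Ly6c2 and Ly6a had 0.55 (0.20 and 0.65 within the pools), and Pdcd1 and Lag3 0.48 (0.34 and 0.56). These are descriptions: clonotypes of a pool share a library, and levels of small clonotypes rest on few cells. As examples, control 2 clonotype 31 (5 cells) had Gzma at 5961 CPM and Xcl1 at 0, and control 2 clonotype 4 (22 cells) had Gzma at 0 and Xcl1 at 599 CPM.

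**Figure D5:**
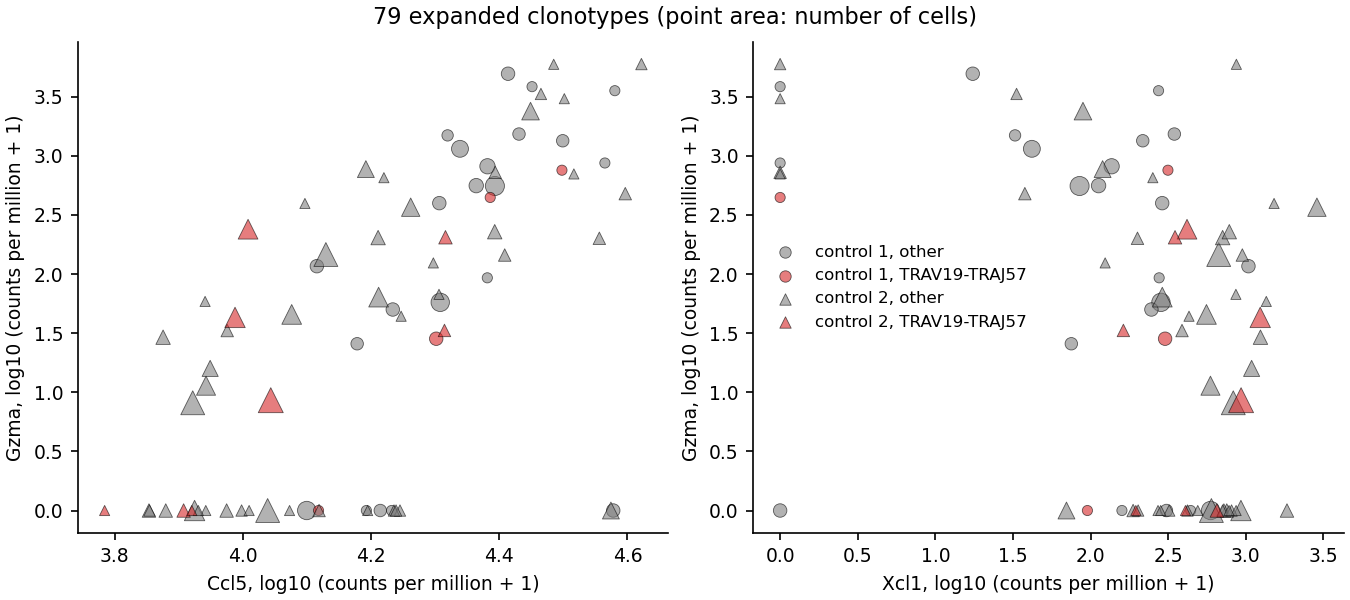
Gzma level against Ccl5 (left) and Xcl1 (right), each as log10 of CPM + 1, for the 79 expanded clonotypes of control 1 (circles) and control 2 (triangles), with point area for the number of cells and TRAV19-TRAJ57 clonotypes in red. Gzma tends to be higher where Ccl5 is higher (Spearman 0.69), 53 of 79 clonotypes have a Gzma UMI, and the red points reach from 0 to 754 CPM of Gzma.

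Summed over cells, Gzma was lower in TRAV19-TRAJ57 clonotypes than in the other expanded cells of each pool. Their 19 and 83 cells had Gzma at 220 and 69.5 CPM, against 905 and 311 CPM in the others, where clonotype 10 of control 1 supplied 36.8% of the UMIs of all expanded cells of its pool. Single clonotypes did not all lie low: control 1 clonotypes 19 and 20 (443 and 754 CPM) and control 2 clonotypes 6, 7 and 19 (41.9, 238 and 204 CPM) were above the medians of their pools given above. Gzmk was at 403 and 365 CPM against 391 and 305 CPM. Cd8b1, part of the gate, was at 770 and 563 CPM against 1382 and 985 CPM, and Tigit at 9.17 and 56.9 CPM against 143 and 128 CPM. Ccl5 was at 20665 and 11209 CPM against 21749 and 14839 CPM, and 101 of their 102 cells had at least 2 Ccl5 UMIs. Of the 38 singletons with these segments 33 had as many, and their Ccr7 level was 226 and 298 CPM against 27.5 and 19.0 CPM in expanded clonotypes with the same segments. These differences rest on 4 and 8 clonotypes and were not tested.

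Expansion took a larger share of Cd8 cells in both Runx1::Runx1t1 pools. Expanded clonotypes held 3.52% and 7.52% of paired Cd8 cells in control pools, and 19.1% (80 clonotypes, 1088 cells) and 40.2% (54 clonotypes, 2259 cells) in Runx1::Runx1t1 pools. The groups did not overlap. The mean difference was 24.2 percentage points, with SDs of 2.83 and 14.9 (n = 2 pools each), and the two-sided exact permutation test gave p = 0.3333, the smallest that 2 pools against 2 allow. The largest clonotype of Runx1::Runx1t1 pool 2 held 1102 cells. Without the largest clonotype of each pool that pool was at 25.6%, and the mean difference was 16.4 percentage points.

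Expanded cells differed from singletons in many genes in both groups. Within Runx1::Runx1t1 pools, 3342 of 12118 genes passed (27.6%), 12.9% higher and 14.7% lower. Gzma had log2 changes of 4.29 in control and 4.31 in Runx1::Runx1t1 pools, and Gzmk 3.83 and 3.79. The test of the difference between groups passed 4 of 12592 genes (0.0318%) with edgeR, 1 more positive (0.00794%) and 3 more negative (0.0238%) in Runx1::Runx1t1 pools. Adgrg1, encoding the adhesion receptor GPR56 (chr8:94974751-95014217, plus strand), was at 7.09 and 10.5 CPM in expanded control cells against 3.75 and 7.01 CPM in singletons (0.45 ± 0.39, not passing). In Runx1::Runx1t1 pools it was at 59.2 and 190 CPM against 3.41 and 5.52 CPM, a difference between groups of 3.91 ± 0.37 (adjusted p = 0.0209, edgeR). Dmrta1, a DM-domain gene, was at 20.3 and 22.6 CPM in expanded control cells against 17.6 and 16.2 CPM in singletons, while expanded Runx1::Runx1t1 cells had 2.26 and 0.770 CPM. Bmyc and Klf4, a quiescence factor of T cells, were the other genes (differences of -2.33 ± 0.28 and -1.67 ± 0.19). Of the 5 genes on the study list, Pdcd1 and Lag3 rose in expanded control cells, and Osgin1 (0.88 ± 0.51) and Chn2 (0.39 ± 0.30) did not pass. In expanded Runx1::Runx1t1 cells Pdcd1 was at 137 and 318 CPM and Lag3 at 240 and 572 CPM, and their differences between groups did not pass (adjusted p = 0.253 and 0.0541). The study chose that list on these samples. The count of 4 was 0 without the block or without either control pool, and 128 with DESeq2.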

How the data were processed

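The deposited files hold UMI counts per gene and cell and lists of receptor contigs, which the authors made with Cell Ranger 6.1.2 on GRCm38 per the submitters' processing notes. These whole-number counts were not normalized. The members and gene lists were chosen with earlier results of these data known.

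Receptor contigs were joined to cells by barcode within each pool, keeping the TRA and the TRB contig with most UMIs. Counts were summed per pool and class. The sums were tested with edgeR 4.0.16 (quasi-likelihood, TMM factors, filterByExpr, pool as a block), with Benjamini-Hochberg adjustment at 0.05, in R 4.3.3. The expanded and singleton sums of a pool come from the same cells' library, which is where the pairing comes from. The 260 receptor segment and gate genes were left out. The difference between groups was the interaction of class and group over 4 pools. The steps were tested on simulated data: 85.0% of genes changed 4-fold were recovered for expanded against singleton cells, over 11700 genes. The share was 89% among cells with Ccl5 (11124 genes) and 71.8% for the difference between groups (12281 genes). The simulated counts had the same spread for every gene and no difference between pools, so these shares need not hold for the real data. CPM used all UMIs of the class. Shares have Wilson 95% intervals, and a count of 0 was given a floor of 3 UMIs.

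Named genes were those with an adjusted p under 0.05, the same direction in both control pools and at least 30 UMIs in the higher class: the 15 largest rises and 10 largest falls (10 and 10 among Ccl5 cells, 5 and 5 between groups), predicted genes passed over. List members were named by largest change among those called and by highest level, and further list members, and clonotypes beyond the 5 largest of each control pool, were named after their values were seen. Doublets were not removed. Scrublet (scanpy 1.11.5) scores placed 12 expanded cells and 559 singletons of control pools in the top 5% of their library, and leaving these out was an alternative. Alternatives changed the tool (DESeq2 1.42.0), normalization, filters, gate, clonotype definition, size limit, depth, block and pools. Leaving out cells with a second TRA contig, clonotypes by TRB alone, leaving out TRAV19-TRAJ57 and library totals were added after seeing the data. Germline segments and gene positions came from GENCODE M21. Some genes the rule named are not reported here.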

Additional observations from a re-analysis of the deposited data

Results flagged for a closer look

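Genes whose change between expanded and singleton cells differed between groups by the interaction test of edgeR were Adgrg1 (3.91, adjusted p = 0.0209), Dmrta1 (-4.14, adjusted p = 0.0209), Klf4 (-1.67, adjusted p = 0.0380) and Bmyc (-2.33, adjusted p = 0.0417), as log2 change in Runx1::Runx1t1 minus control pools. Klf4 was lower in expanded cells of both groups (-0.50 in control and -2.23 in Runx1::Runx1t1 pools), and Bmyc did not pass in control pools (-0.46 ± 0.17).

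Another 3 genes passed in opposite directions in the 2 groups, and their interaction did not pass. Tnf changed by 0.86 in control and by -0.99 in Runx1::Runx1t1 pools, a difference of -1.85 between these values (interaction adjusted p = 0.0542, edgeR). Nrgn changed by -1.58 and 2.28, a difference of 3.86 (adjusted p = 0.0615). Izumo1r changed by -0.66 and 0.92, a difference of 1.59 (adjusted p = 0.0915).

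Outside the Cd8 gate, 11 cells that shared an expanded control clonotype had no Cd8 and no Cd4 UMI, all of them in control 2. Of these, 5 belonged to control 2 clonotype 52 (TRAV6N-7 with TRBV3), whose 4 gated cells had Cd8b1 at 0 and Gzma at 5936 CPM.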

How the results depend on the processing

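The pool was the block in the fits, since both classes of a pool come from the same mice and library. With no replicate block the calls between expanded and singleton cells were 1224 instead of 1803, those among cells with Ccl5 were 905 instead of 1446, and those between groups were 0 instead of 4 (1947 genes at an unadjusted p under 0.05, edgeR). Of the 1803 and 1446 calls, 1219 and 905 were kept.

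For expanded against singleton cells, the count was 677 with DESeq2 (1368 adjusted p-values missing), 1066 from 8 cells, 1078 thinned to 2000 UMIs and 2871 with library totals. Without a pool it was 30 to 50. Among cells with Ccl5, the counts were 459, 831, 793 and 2623 in the same order, and 1 without either pool. All 1803 and 1446 genes kept their sign without the block and with library totals, and 990 of 1803 were called again in thinned cells. Of the 25 genes with the largest changes between expanded and singleton cells, 20 lost their call under at least 1 setting: 4 with DESeq2 (5 more had no adjusted p there), 7 from 8 cells, 6 with at most 4 cells per clonotype, 3 in thinned cells, 1 (Fcgr3) from 3 cells and with no replicate block, and 19 and 20 without control 1 and control 2. Those lost with DESeq2 (Drc1, Dyrk4, Klrc3 and Fcgr3) were at 0 UMIs in expanded cells, as were those lost from 8 cells apart from Lamc1. Gzma, Gzmk, Stk32c, Pdcd1 and Lag3 kept theirs under every setting run.

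Between groups the count was unstable: 128 with DESeq2, 218 with at most 4 cells per clonotype, 63 with a Cd8 gate of 2 UMIs, 146 with library totals, 113 without TRAV19-TRAJ57, 923 without the low-count filter, 24 without the largest clonotypes, 59 without cells with a second TRB contig, 399 from 8 cells, 44 thinned, 32 by TRB alone, 2 with 500 genes and 5% mitochondrial UMIs, 1 by amino acids and 0 from 3 cells (1803 at an unadjusted p under 0.05). Without a pool it was 0 to 1584. The cause was not tested. The number of expanded clonotypes was 143 from 3 cells and 24 from 8 cells. The share difference kept its direction under every setting run (13.6 to 34.7 percentage points).

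Depth limits genes near 1 CPM, since expanded control cells hold few UMIs beside singletons, and a mean of 2 pools gives little information on variation between mice. Cells of the 2 mice in a pool cannot be told apart.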
